A study of Mus musculus with 24 samples.

Results

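Serine palmitoyltransferase makes the first committed step of sphingolipid synthesis. The genes described are the 7 listed for its complex, Sptssa, Sptssb, Sptlc1, Sptlc2, Ormdl1, Ormdl2 and Ormdl3, out of 38019 gene symbols in each of 24 libraries. The set was built around Sptssa, which was selected on its lower level in mutant forelimb buds at E11.5, and its listed partners were added by name. The libraries hold total RNA of limb buds, fore (FL) or hind (HL), of C57/Bl6 mouse embryos at E10.5 or E11.5, in days of gestation. All embryos carry U11flx/flx, meaning that loxP sites flank Rnu11, whose small nuclear RNA belongs to the minor spliceosome; those labelled Prrx1-Cre- are called WT and those labelled Prrx1-Cre+ are called mutant. The 8 groups of stage, limb and genotype hold 3 libraries each. Prrx1-Cre acts in limb mesenchyme, so ectoderm, blood, vessels and immigrating muscle precursors in a mutant bud are not its main target. Nothing in the labels ties a library to an embryo or pool, so the p-values below measure spread among libraries, which may be technical.

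The enzyme joins serine to a fatty acyl-CoA in the membrane of the endoplasmic reticulum. SPTLC1 and SPTLC2 form its catalytic core. The small subunits SPTSSA and SPTSSB bind the core, raise its activity and help to set which acyl-CoA it accepts. The ORMDL proteins hold the enzyme back when ceramide, a product of the pathway, is plentiful. Sphingolipids built from this step are membrane components of all cells and the source of the signalling lipid sphingosine-1-phosphate.

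Sptssa (ENSMUSG00000044408.7) spans bases 54645392 to 54656573 of chromosome 12 (GRCm38, minus strand). Its transcript Sptssa-201 has 2 exons, at 54656372 to 54656573 and at 54645392 to 54646535, and encodes 71 amino acids. The miRNA gene Mir1892 lies within the region of the second exon on the same strand and was listed at 0 in 24 of 24 libraries. The stretch from 250 bases before to 50 bases after the start of Sptssa (RefSeq, GRCm38.p6, chr12:54656523-54656822, minus strand) is shown because the set was built on this gene. Capitals mark matches, on either strand, to the motif CCAAT or to the motif GGGCGG. Searched the same way, the motif TATAAA, the motif CACGTG and the motif CCGGAA are not in this window:
Sptssa: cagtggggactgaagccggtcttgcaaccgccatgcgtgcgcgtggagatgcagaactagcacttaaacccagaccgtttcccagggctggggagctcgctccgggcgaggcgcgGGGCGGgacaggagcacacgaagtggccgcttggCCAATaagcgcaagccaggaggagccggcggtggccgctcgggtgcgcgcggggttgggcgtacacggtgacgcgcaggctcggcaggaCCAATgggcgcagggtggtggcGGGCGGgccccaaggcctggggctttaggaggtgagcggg
Of these motifs, CCAAT was found in 37.4% and GGGCGG in 35.7% of 32851 promoters of this length, TATAAA in 13.6%, CACGTG in 7.15% and CCGGAA in 14.9%. The window is 70% G or C, against a median of 52.67% over all promoters.

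Sptssa had the highest mean level of the members over all libraries, at 15.8 rescaled TPM. TPM values are per transcript length, so levels can be set beside each other, and rescaled means that libraries were brought to a common median. Sptlc2 followed at 14.2, Ormdl1 at 9.59, Sptlc1 at 6.74, Ormdl3 at 5.83 and Ormdl2 at 4.08 rescaled TPM. This order did not hold in every group. In FL mutants the mean of Sptlc2 was above that of Sptssa, at 16.0 against 11.4 in E11.5 and 12.6 against 12.1 in E10.5. In all other groups the mean of Sptssa was above that of Sptlc2. Sptssb averaged 0.206 rescaled TPM, so of the pair of small subunits these buds held mostly Sptssa mRNA. The other 6 members were at 1 TPM or more in 24 of 24 libraries, and Sptssb in 0 of 24.

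The limb and genotype labels were first set beside their markers. The forelimb gene Tbx5 ranged from 1.81 to 10.1 rescaled TPM in FL libraries and reached 0.377 in HL libraries. The hindlimb genes Pitx1 and Tbx4 were at 4.84 rescaled TPM or more in all HL libraries. One library went against its label in part: E10.5 FL mutant replicate 3 held Pitx1 at 1.53 and Tbx4 at 1.68, above the other FL libraries. Rnu11, the targeted gene, was 482 rescaled TPM in that library and 251 in E10.5 FL WT replicate 1, so the E10.5 FL groups overlap. In the other stage and limb groups every mutant library lay below every WT library, with means of 203 against 565 in E10.5 HL, 175 against 1295 in E11.5 FL and 390 against 1544 in E11.5 HL. Xist was at 5 TPM or more in 6 libraries, all mutant. These are replicates 1 and 3 of both limbs at E10.5 and replicate 3 of both limbs at E11.5. As no WT library reached that level, whatever differs with Xist cannot be fully told apart from genotype.

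At E11.5 the level of Sptssa in mutant forelimb buds was 48.2% of that in WT. The WT forelimb libraries held 20.2, 27.4 and 23.6 rescaled TPM, and the mutant ones 11.4, 11.2 and 11.7. All 3 mutant libraries lay below all 3 WT libraries, and they differed little among themselves. The difference in mean log2(rescaled TPM + 1), the scale of all differences below, was -0.98 ± 0.10 (SE), rank 85 from the lowest of 11126 genes. This comparison chose Sptssa, so the value is a description with no test. The difference was -0.49 on the deposited scale, on which the median gene was 0.39 higher in mutants.

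In hindlimb buds of E11.5, Sptssa was 19.3, 18.9 and 20.7 rescaled TPM in WT and 18.6, 17.6 and 18.5 in mutants. The groups do not overlap, but the gap is small, and the share of all genes without overlap was not counted. The difference of -0.10 ± 0.10 did not pass the limma test at an adjusted p of 0.05 (adjusted p = 0.794), and its 95% interval ran from -0.32 to 0.11. The mutant effect in HL minus that in FL was 0.88 ± 0.14, and 0.31 on the deposited scale, given without a test because it uses the comparison that chose the gene.

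At E10.5 the genotypes overlapped in both limbs. WT forelimb libraries held 16.1, 11.2 and 12.5 rescaled TPM and mutant ones 9.88, 9.73 and 16.8; the highest mutant value is that of replicate 3, the library with hindlimb markers. The difference was -0.15 ± 0.23 (limma adjusted p = 0.963, 95% interval -0.65 to 0.35), and -0.39 without that library. It was -0.01 without WT replicate 1, the WT library of low Rnu11, -0.25 without both, and -0.39 to -0.01 over all 6 fits with a library left out. WT hindlimb libraries held 10.9, 14.0 and 14.7 and mutant ones 13.2, 11.9 and 18.7. That difference was 0.12 ± 0.23 (limma adjusted p = 1, 95% interval -0.37 to 0.62), and -0.05 without mutant replicate 3, its highest library. In HL the mutant effect at E11.5 minus that at E10.5 was -0.23 ± 0.26 (limma adjusted p = 1, 95% interval -0.76 to 0.31).

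**Figure D1:**
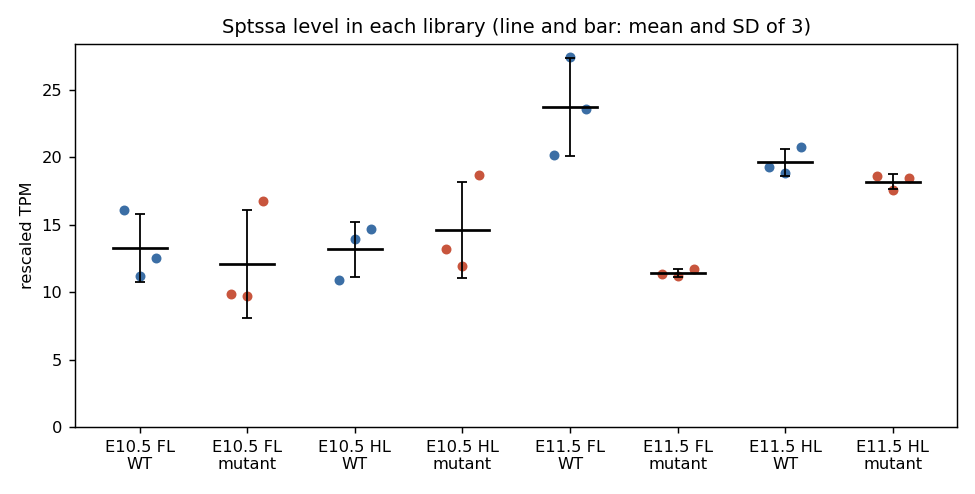
Sptssa level (rescaled TPM, vertical axis) in each library of the 8 groups; points are libraries (blue WT, red mutant), lines and bars the mean and SD of 3. The E11.5 FL mutant libraries sit between 11.2 and 11.7, below the 20.2 to 27.4 of E11.5 FL WT and within the 9.73 to 16.8 of E10.5 FL mutants.

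Ordered by mean, Sptssa was highest in E11.5 FL WT (23.7 ± 3.62, SD, n = 3), then E11.5 HL WT (19.6 ± 0.981) and E11.5 HL mutant (18.2 ± 0.556). The E10.5 groups followed, with HL mutant at 14.6 ± 3.57, FL WT at 13.3 ± 2.54, HL WT at 13.2 ± 2.01 and FL mutant at 12.1 ± 4.01. The lowest group was E11.5 FL mutant at 11.4 ± 0.284. Among neighbours in this order, only E11.5 HL WT and E11.5 HL mutant do not overlap. From E10.5 to E11.5 the mutant forelimb differed by -0.04 ± 0.18 and the WT forelimb by 0.80 ± 0.18. This contrast depends on the scale: on deposited values the differences were 0.19 and 0.34, where the median gene differed by 0.18 and -0.27. The mutant effect at E11.5 minus that at E10.5 in FL was -0.83 on the rescaled and -0.15 on the deposited scale, without a test.

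None of the other members stood apart in mutants as Sptssa did in E11.5 forelimb buds. There Sptlc1 was -0.09 ± 0.09, Sptlc2 -0.07 ± 0.08, Ormdl1 -0.27 ± 0.14, Ormdl2 -0.12 ± 0.15 and Ormdl3 0.16 ± 0.08 (log2 differences, mutant minus WT, a description). Sptlc2, which carries the cofactor-binding lysine of the enzyme, was 15.3, 17.5 and 17.997 rescaled TPM in WT and 16.0, 16.6 and 15.5 in mutants, with overlap. Sptlc1, its partner in the core, was 7.25, 7.31 and 8.29 against 6.42, 7.18 and 7.68, again with overlap. Ormdl3 was 7.22, 7.11 and 6.61 against 7.49, 8.29 and 8.05, all mutant libraries being higher. How many of all genes separate in this way there was not counted. The median over the 6 members in the fit was -0.11, beside -0.02 over all genes.

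In the other genotype comparisons 0 of 6 members passed the limma threshold, and 0 had an unadjusted p under 0.05. Over all genes, 626 of 11955 in E10.5 FL, 234 of 11955 in E10.5 HL and 687 of 11126 in E11.5 HL had an unadjusted p that low. Few genes of any kind passed the threshold there: 0.0251% of those tested in the forelimb of E10.5, 0.00836% in its hindlimb, and 0.018% in E11.5 HL. The smallest unadjusted p was that of Ormdl1 in E10.5 FL, at 10.9, 10.4 and 9.31 rescaled TPM in WT and 12.02, 11.7 and 13.3 in mutants. These groups do not overlap; the difference was 0.25 ± 0.12 (limma adjusted p = 0.907, 95% interval -0.01 to 0.52). The share of all genes without overlap was not counted in any comparison of genotype or stage, so such separations say little of the members in particular. For the difference between the stages' mutant effects in HL, 0 of 6 members passed (0 at an unadjusted p under 0.05), with 0.00807% of all genes passing and 327 of 12399 at an unadjusted p under 0.05.

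**Figure D2:**
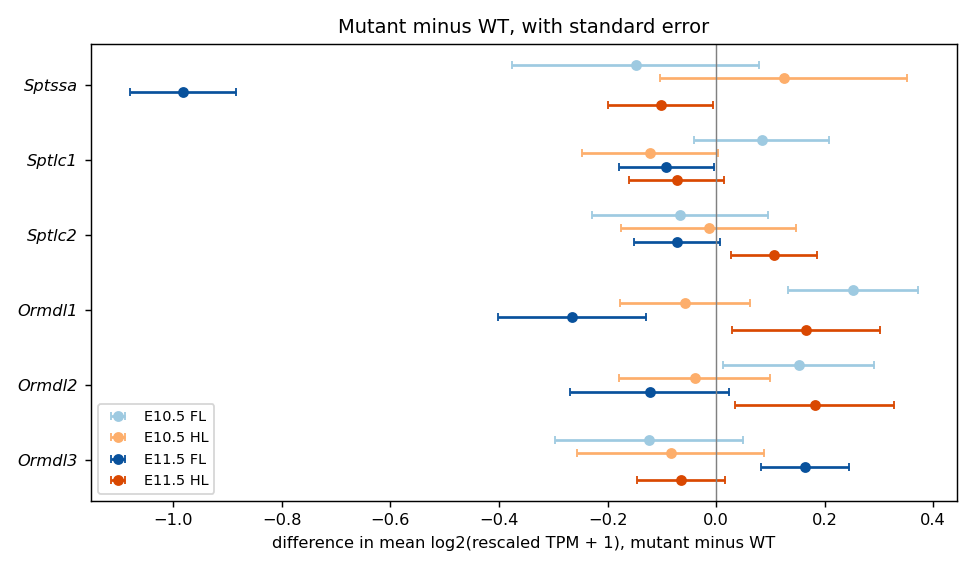
Difference in mean log2(rescaled TPM + 1), mutant minus WT (horizontal axis), with its SE, for 6 members in the 4 stage and limb groups. The E11.5 FL value of Sptssa at -0.98 lies apart from the others, which run from -0.27 to 0.25.

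Other cell types were present in every group, and some of their marker sums moved with genotype. In E11.5 FL the summed level of 8 endothelial markers was 21.2 to 27.7 rescaled TPM in mutants and 16.7 to 19.1 in WT, and 8 of 8 were higher. The 7 muscle precursor markers summed to 10.6 to 19.0 against 8.50 to 12.6, and 5 of 6 in the fit were higher. The 7 myeloid markers summed to 6.61 to 17.4 against 5.93 to 9.48, and 4 of 4 in the fit were higher. Surface ectoderm was 73.1 to 80.9 against 83.5 to 103.7, and limb mesenchyme 253 to 261 against 249 to 268. In E10.5 FL the 10 erythroid markers summed to 4499 to 5477 in mutants and 2036 to 2885 in WT (8 of 8 in the fit above 0), and limb mesenchyme to 143 to 225 against 212 to 276. None of these lists had a marker at 0 in every library of those groups. Their part in the Sptssa values was not tested, and in such bulk samples fewer cells of a type and less RNA per cell cannot be told apart.

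Ratios within 1 library need no rescaling, and so were used to set Sptssa beside the catalytic core. Sptssa over the sum of Sptlc1 and Sptlc2 was 0.893, 1.10 and 0.896 in E11.5 FL WT and 0.507, 0.469 and 0.506 in E11.5 FL mutants. The mutant libraries lay below all WT libraries, at 0.515-fold of WT, which is a description like the level itself. In E11.5 HL the ratio was 0.910, 0.913 and 0.875 in WT and 0.820, 0.771 and 0.828 in mutants. These groups do not overlap either; the fold was 0.896, with p = 0.1 in the exact two-sided permutation test, the smallest that 3 against 3 libraries allow. The separation was not seen against both subunits. Sptssa over Sptlc2 alone was 1.33 to 1.38 in WT and 1.14 to 1.19 in mutants. Over Sptlc1 alone it was 2.56 to 2.73 and 2.37 to 2.77, with overlap. At E10.5 the ratio to the summed core ranged from 0.464 to 0.943 in WT and from 0.491 to 1.07 in mutants, and the genotypes overlap in both limbs. Over the 3 groups that did not choose the gene (both limbs of E10.5, and E11.5 HL) the log2 ratio differed by -0.04 between genotypes (exact permutation over 8000 assignments within groups, p = 0.818, adjusted p = 0.818 over 3 ratios, lower in mutants in 2 of 3 groups). The test takes FL and HL of E10.5 as independent, which they are not if their libraries share embryos.

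Sptlc2 was between 1.67 and 2.51 times Sptlc1 in every library, with group means from 1.92 to 2.28. The genotype difference in this ratio over the same 3 groups was 0.05 on the log2 scale (exact permutation, p = 0.5275, adjusted p = 0.791). In E11.5 HL alone the mutant ratios, 2.08 to 2.38, all lay above the WT ratios, 1.93 to 2.00 (0.20 on the log2 scale; exact permutation, p = 0.1, the smallest possible). The ratio of summed Ormdl mRNA to the core differed by 0.07 between genotypes (exact permutation, p = 0.4285, adjusted p = 0.791). In E11.5 FL it was 0.753 ± 0.059 in WT and 0.763 ± 0.086 in mutants (SD, n = 3).

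**Figure D3:**
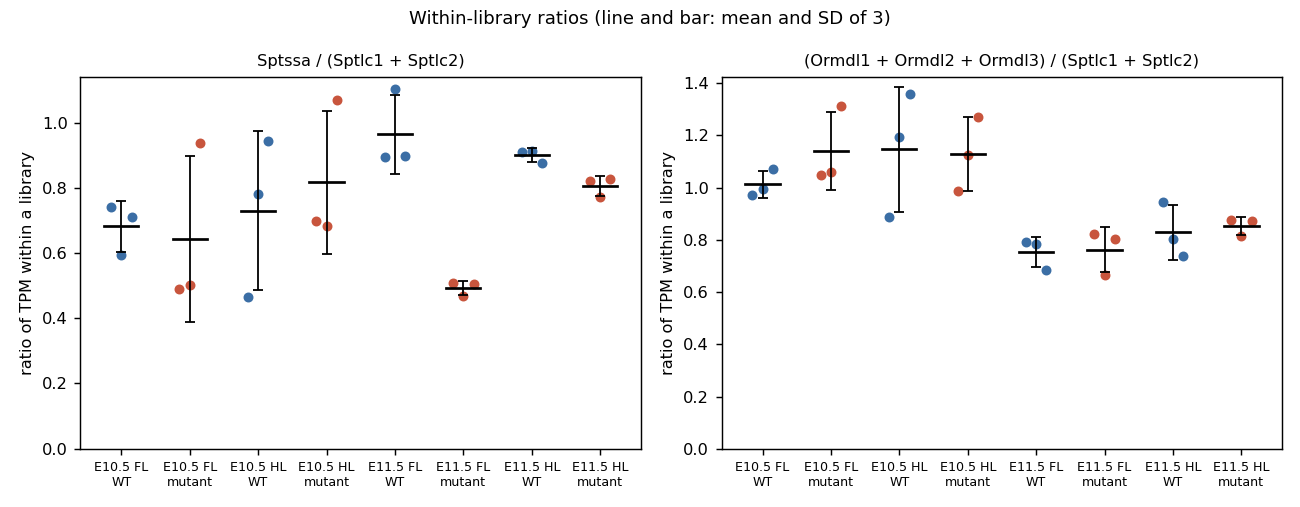
Ratio of TPM within a library (vertical axis) for Sptssa over Sptlc1 plus Sptlc2 (left) and for the summed Ormdl genes over Sptlc1 plus Sptlc2 (right); points are libraries (blue WT, red mutant), lines and bars the mean and SD of 3. On the left the E11.5 FL mutant mean of 0.494 is the lowest of the 8 groups; on the right the E11.5 means, 0.753 to 0.854, lie below the E10.5 means, 1.01 to 1.15.

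Stage brought more differences than genotype or limb. In WT forelimb, 4 of 6 members passed the limma threshold from E10.5 to E11.5, all higher, where 38.8% of all genes passed. Sptssa is among them, and the E11.5 FL WT libraries belong to the comparison that chose it. In WT hindlimb 3 of 6 passed, 2 higher and 1 lower, where 40.9% of all genes passed, and in mutant hindlimb 3 of 6, 2 higher and 1 lower, where 35.5% passed. So many genes differ between the stages that these counts say little of the members in particular, and the trimming of E10.5 reads goes with stage. The directions also depend on the scale: on deposited values the median gene was lower at E11.5 by -0.27 in FL WT, -0.42 in HL WT and -0.61 in HL mutant, and the differences of Sptlc1, Sptlc2 and Ormdl3, and those of Sptssa in HL, are negative there.

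Sptssa rose in WT forelimb from 13.3 ± 2.54 to 23.7 ± 3.62 rescaled TPM (0.80 ± 0.18, limma adjusted p = 0.00252). The E11.5 FL WT libraries belong to the comparison that chose Sptssa, so this p is no independent evidence. In WT hindlimb Sptssa rose from 13.2 ± 2.01 to 19.6 ± 0.981 (0.55 ± 0.18, limma adjusted p = 0.0215). This call was lost without E10.5 HL WT replicate 1 or E11.5 HL WT replicate 3 (limma adjusted p = 0.102 and 0.0666). In both limbs all E11.5 WT libraries lay above all E10.5 WT libraries. In mutant hindlimb the difference was 0.32 ± 0.18 (limma adjusted p = 0.172, 95% interval -0.06 to 0.70), with overlap, and it was 0.50 (limma adjusted p = 0.0453) without E10.5 HL mutant replicate 3. On the deposited scale Sptssa was 0.34 in WT forelimb, -0.07 in WT hindlimb and -0.48 in mutant hindlimb. The calls in WT forelimb and WT hindlimb were lost there (limma adjusted p = 0.220 and 0.814), and mutant hindlimb passed as lower (limma adjusted p = 0.0386, with 0.0386 to 0.473 over its alternatives).

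The core subunits passed in some of these comparisons. In WT forelimb Sptlc1 differed by 0.27 ± 0.10 (limma adjusted p = 0.0392) and Sptlc2 by 0.34 ± 0.13 (limma adjusted p = 0.0424), each lost in 4 of 6 fits with a library left out. For Sptlc1 these were E10.5 replicate 3 and each E11.5 replicate, and for Sptlc2 replicates 2 and 3 of both stages. In WT hindlimb Sptlc1 was 0.19 ± 0.10 and Sptlc2 0.21 ± 0.13, and neither passed (limma adjusted p = 0.152 and 0.185); Sptlc2 was 0.42 without E10.5 HL WT replicate 1 (0.00364). In mutant hindlimb Sptlc2 passed at 0.33 ± 0.13 (limma adjusted p = 0.0461) but in 0 of 6 fits with a library left out, and Sptlc1 did not at 0.23 ± 0.10 (limma adjusted p = 0.0775).

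Ormdl1 and Ormdl3, which encode related inhibitors of the enzyme, went in opposite directions between the stages on the rescaled scale. Ormdl1 was 11.9, 12.1 and 11.6 rescaled TPM in HL WT at E10.5 and 8.55, 6.48 and 7.83 at E11.5, with no overlap. It fell in HL WT (-0.59 ± 0.13, limma adjusted p = 0.00161), a call kept in 6 of 6 fits with a library left out and in 8 of 8 other settings, the deposited scale among them. In HL mutants it was 9.77, 11.2 and 13.4 against 8.50, 7.999 and 9.42, again with no overlap, and it fell (-0.36 ± 0.13, limma adjusted p = 0.0340). That call was kept in 2 of 6 such fits, being lost without replicate 2 or 3 of E10.5 or replicate 1 or 2 of E11.5, and in 5 of 8 other settings, being lost with no filter, with only the groups compared and without Xist-positive libraries. In FL WT the difference of -0.32 ± 0.13 did not pass (limma adjusted p = 0.0566), but did on the deposited scale (-0.74, 0.0109). Ormdl1 shares its strand and most of its length with the gene Gm28778, so how reads of the pair were split is uncertain.

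Ormdl3 was 3.71, 4.31 and 5.88 rescaled TPM in HL WT at E10.5 and 6.57, 7.21 and 6.21 at E11.5, again with no overlap. It rose on the rescaled scale in HL WT (0.46 ± 0.13, limma adjusted p = 0.0105), HL mutants (0.48 ± 0.13, 0.00978) and FL WT (0.38 ± 0.13, 0.0303). These calls were kept in 5, 5 and 3 of 6 fits with a library left out. They were lost without E10.5 HL WT replicate 1, without E10.5 HL mutant replicate 2, and without E10.5 FL WT replicate 2 or E11.5 FL WT replicate 1 or 2. Of 8 other settings, 6, 7 and 4 kept them; with only the groups compared in the fit the adjusted p was 0.0560 in HL WT and 0.114 in FL WT (limma), and FL WT was also lost with no filter (0.0600) and without Xist-positive libraries (0.0579). All 3 differences turned negative on the deposited scale. Ormdl2, the lowest of the family, was -0.21 ± 0.14 in FL WT, -0.25 ± 0.14 in HL WT and -0.03 ± 0.14 in HL mutants, and passed in none (limma adjusted p = 0.248, 0.162 and 0.878); on the deposited scale it passed in HL WT (-0.79, 0.00681) and HL mutants (-0.74, 0.00710). It is covered by Sarnp and in part by Dnajc14 on the opposite strand, and without the strand counted their reads cannot be told apart.

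The promoter windows of Ormdl1 (chr1:53296845-53297144, plus strand) and Ormdl3 (chr11:98587196-98587495, minus strand), from the same RefSeq table, are set side by side because these genes differed in direction on the rescaled scale. Capitals mark the motif CCAAT, the motif GGGCGG or the motif CCGGAA on either strand. In Ormdl1 the matches to the last of these, 1 on each strand, overlap:
Ormdl1: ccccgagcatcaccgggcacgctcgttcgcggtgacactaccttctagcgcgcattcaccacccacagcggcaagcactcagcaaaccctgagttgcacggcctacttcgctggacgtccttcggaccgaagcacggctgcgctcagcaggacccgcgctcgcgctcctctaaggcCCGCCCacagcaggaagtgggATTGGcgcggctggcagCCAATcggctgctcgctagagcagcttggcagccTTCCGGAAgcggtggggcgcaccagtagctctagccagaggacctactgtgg
Ormdl3: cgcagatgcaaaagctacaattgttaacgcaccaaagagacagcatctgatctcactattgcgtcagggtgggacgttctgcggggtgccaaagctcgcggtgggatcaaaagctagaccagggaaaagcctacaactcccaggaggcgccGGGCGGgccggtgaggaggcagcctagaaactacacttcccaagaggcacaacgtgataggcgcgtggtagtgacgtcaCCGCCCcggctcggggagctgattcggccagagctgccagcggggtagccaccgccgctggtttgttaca
Ormdl1 held 2 matches to CCAAT, 1 to GGGCGG and 2 to CCGGAA, and Ormdl3 held 2 to GGGCGG and 0 to the others. TATAAA and CACGTG were in neither window. A link between these matches and the levels was not tested.

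Within libraries, Ormdl1 was 1.53 to 3.20 times Ormdl3 at E10.5 and 0.619 to 1.61 times at E11.5, a ratio chosen after its values were seen. The summed Ormdl mRNA over the core was lower at E11.5 as well. In HL WT it was 0.888, 1.20 and 1.36 at E10.5 and 0.946, 0.803 and 0.738 at E11.5, with overlap, and in HL mutants 0.987, 1.13 and 1.27 against 0.875, 0.814 and 0.872, without. Over both genotypes it fell by 0.42 on the log2 scale, to 0.745-fold (exact permutation over 400 assignments, two-sided p = 0.01, adjusted p = 0.03 over 3 ratios; lower in 2 of 2 strata). This test was added after the values were seen, so its p is no independent evidence, and with Ormdl3 alone in place of the sum the difference was 0.28 (exact permutation, p = 0.145). FL WT, not used in that test, had 0.973, 0.993 and 1.07 against 0.791, 0.783 and 0.686, with no overlap (exact permutation, p = 0.1, the smallest possible). The ratio of Sptssa to the core differed by 0.19 between the stages in HL (exact permutation, p = 0.415, adjusted p = 0.62).

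**Figure D4:**
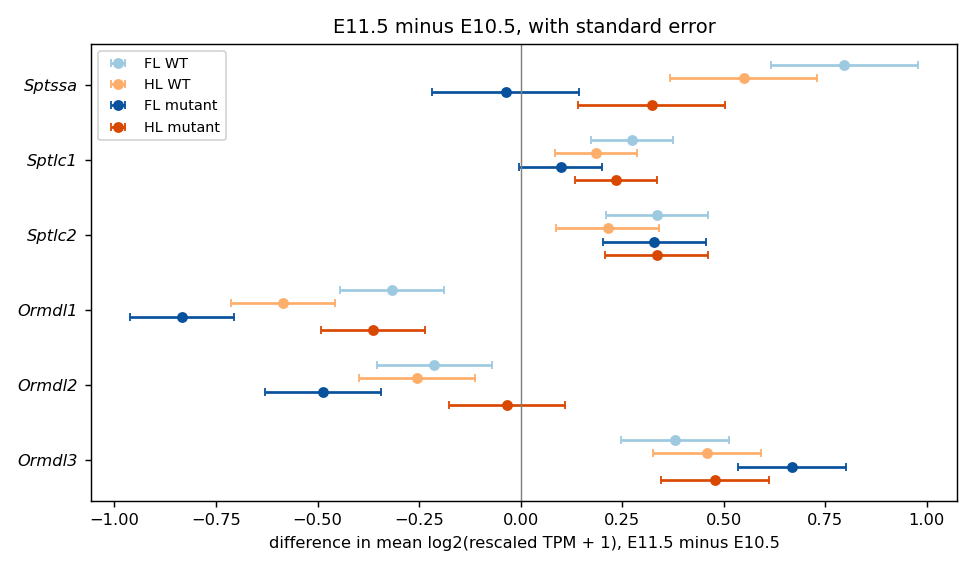
Difference in mean log2(rescaled TPM + 1), E11.5 minus E10.5 (horizontal axis), with its SE, for 6 members in the 4 limb and genotype groups. Ormdl1 lies below 0 and Ormdl3 above 0 in all 4 on this scale (on the deposited scale Ormdl3 is below 0 in FL WT, HL WT and HL mutants), and Sptssa runs from -0.04 in FL mutants to 0.80 in FL WT.

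For HL against FL, 0 of the 6 members in the fits passed the limma threshold in E10.5 WT, E10.5 mutants or E11.5 WT, where 0.125%, 0.0586% and 0.144% of all genes passed. At an unadjusted p under 0.05 (limma) there were 0, 0 and 2 members, beside 1134 of 11955, 785 of 11955 and 765 of 11126 genes. The 2 members are Sptssa, -0.25 ± 0.10 in E11.5 WT (limma adjusted p = 0.637, 95% interval -0.47 to -0.04 before adjustment), and Sptlc2, -0.22 ± 0.08 (limma adjusted p = 0.624), both lower in HL. The FL libraries of E11.5 WT belong to the comparison that chose Sptssa, so its p and interval there are no independent evidence. Of the 6 members in the fits, Ormdl1 in E10.5 WT (0.20 ± 0.12, higher in HL) and Sptlc1 in E10.5 mutants (-0.16 ± 0.12) did not overlap between the limbs (limma adjusted p = 0.627 and 0.919). Neither did Sptssb, the member outside the fits, in any of these 3 comparisons. The share of all genes without overlap was not counted, so these separations say little of the members in particular. In E11.5 mutants, where the FL libraries also belong to the comparison that chose Sptssa, HL minus FL was 0.63 ± 0.10 for Sptssa, 0.36 ± 0.14 for Ormdl1, 0.37 ± 0.15 for Ormdl2 and -0.29 ± 0.08 for Ormdl3, given as values.

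Sptssb, the alternative small subunit, was too low for the fits. It was 0.334, 0.505 and 0.839 rescaled TPM in E10.5 FL WT and 0.209, 0.049 and 0.035 in E10.5 HL WT, so forelimb values lay above hindlimb values there. The HL mean was 17.5% of the FL mean in E10.5 WT, 27.1% in E10.5 mutants and 9.52% in E11.5 WT, each without overlap and without a test. At E11.5 it was 0.159, 0.162 and 0.228 in FL WT, and in HL WT it was listed at 0 in 2 libraries and at 0.052 in the third. In E11.5 FL mutants it was 0.055, 0.134 and 0.281, overlapping WT. Sptlc3, an alternative to Sptlc2 in the core, was between 0.236 and 0.661 rescaled TPM in all libraries and was not tested.

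**Figure D5:**
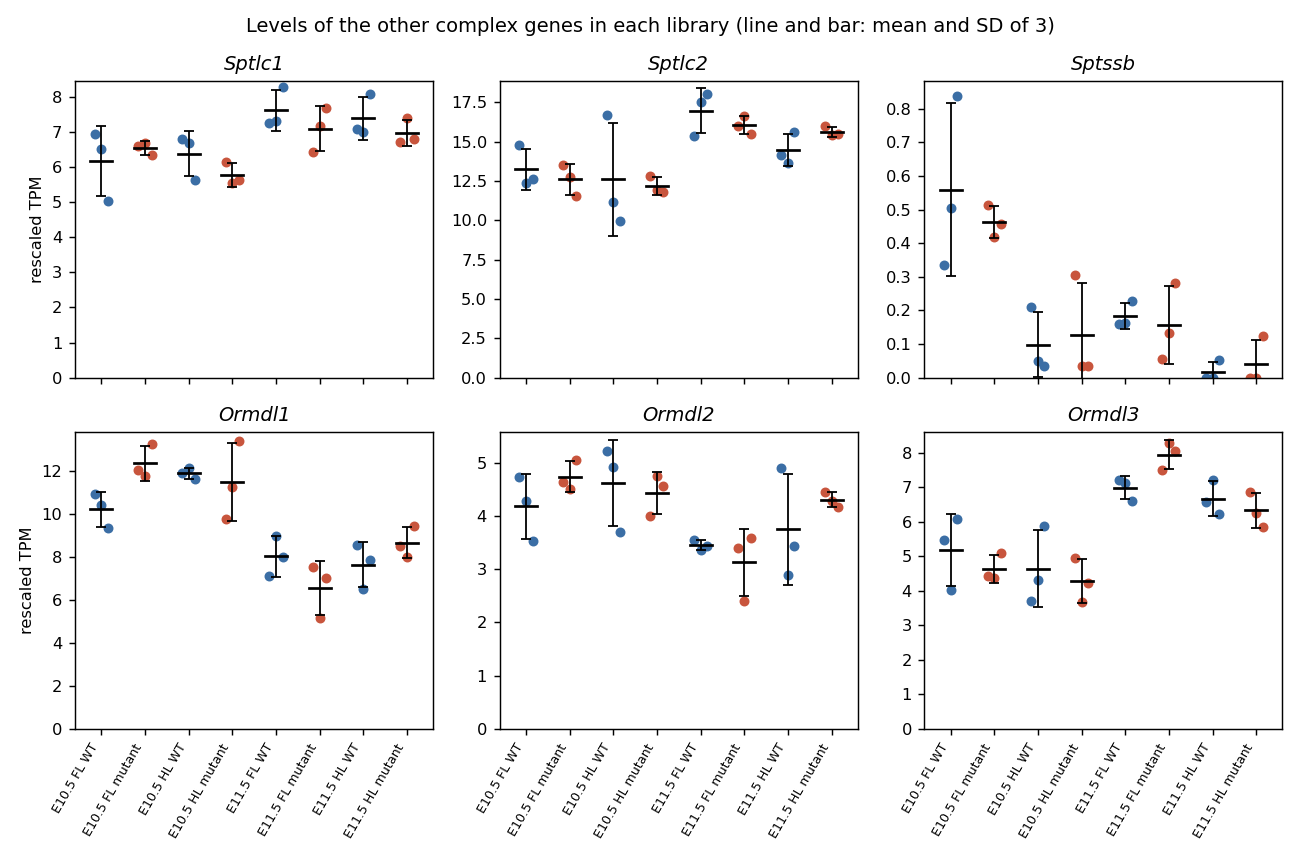
Levels (rescaled TPM, vertical axes differ) of the other 6 members in each library of the 8 groups; points are libraries (blue WT, red mutant), lines and bars the mean and SD of 3, bars being cut at 0 for Sptssb. Ormdl1 is higher and Ormdl3 lower in most E10.5 libraries, and Sptssb stays at or below 0.839.

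The rest of the pathway was followed in a list of 58 genes of sphingolipid synthesis, breakdown and signalling, of which 42 were in the fits of E10.5 and of all libraries and 40 in those of E11.5. In the 3 genotype comparisons tested and the 3 limb comparisons, 0 passed the limma threshold, with 0 to 4 at an unadjusted p under 0.05. Over all genes 0.00836% to 0.144% passed there. An unadjusted p under 0.05 was reached by 234 to 1134 of 11955 genes at E10.5 and by 687 and 765 of 11126 at E11.5. For the difference between stages of the HL mutant effect 0 of the list passed, beside 0.00807% of all genes. In the list 1 gene had an unadjusted p under 0.05, beside 327 of 12399 genes. It was Samd8 at -0.44 ± 0.16, followed by Tecr at 0.29 ± 0.17 (limma adjusted p = 1 for both). In E10.5 FL the smallest p were those of Plpp2, a lipid phosphate phosphatase, at 0.49 ± 0.14 (limma adjusted p = 0.786), and S1pr3, a sphingosine-1-phosphate receptor, at -0.35 ± 0.18 (0.907). In E10.5 HL they were those of Tecr, a reductase of very long chain fatty acid synthesis, at -0.29 ± 0.15, and S1pr3, at -0.29 ± 0.18 (limma adjusted p = 1 for both). In E11.5 HL they were those of Cerk, the ceramide kinase, at -0.27 ± 0.12, and B4galt5, a lactosylceramide synthase, at 0.33 ± 0.15 (limma adjusted p = 0.751 for both). The list's median was -0.08 there, beside -0.04 over all genes. In E11.5 FL, as a description, it was -0.03 beside -0.02 over all genes, with 15 of 40 above 0 and Asah1, the acid ceramidase, at -0.37 ± 0.10.

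Between the limbs the smallest p were again those of Plpp2, 0.65 ± 0.14 higher in HL of E10.5 WT (limma adjusted p = 0.151), and S1pr3, at -0.42 ± 0.18 (0.484). In E11.5 WT they were those of S1pr3, at -0.26 ± 0.10, and Plpp1, at -0.29 ± 0.11 (limma adjusted p = 0.631 and 0.635). In E10.5 mutants they were those of Acer3 and Gba2, at -0.44 ± 0.19 and 0.42 ± 0.20 (limma adjusted p = 0.744 and 0.773).

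Between the stages 13 of 42 rose and 7 fell in FL WT, 12 rose and 9 fell in HL WT, and 8 rose and 7 fell in HL mutants, by the limma test on the rescaled values, where 38.8%, 40.9% and 35.5% of all genes passed. On the deposited scale 0 rose and 7 fell in FL WT, 0 and 12 in HL WT, and 0 and 21 in HL mutants, where 22%, 34.5% and 50.9% of all genes passed, most of them lower (20.2%, 32.3% and 49.5%), so a rise below is a rise relative to the median gene. The list's medians were 0.13, 0.08 and 0.03, beside 0.06, 0.06 and 0.02 over all genes. Asah1, which releases sphingosine from ceramide, rose from 10.4 ± 0.356 to 16.4 ± 1.15 rescaled TPM in FL WT (0.61 ± 0.10, limma adjusted p = 0.000183), and by 0.60 ± 0.10 in HL WT and 0.78 ± 0.10 in HL mutants; on the deposited scale it was 0.16, 0.00 and -0.01. Sgpl1, the lyase that ends the pathway, rose by 0.61 ± 0.11 in both HL WT and HL mutants (limma adjusted p = 0.000331 and 0.000415). Smpd4, a neutral sphingomyelinase, fell in FL WT (-0.69 ± 0.14), HL WT (-0.84 ± 0.14) and HL mutants (-0.78 ± 0.14), and also fell on the deposited scale in all 3 (-1.13, -1.45 and -1.57). Sgpp1, a sphingosine-1-phosphate phosphatase, rose in FL WT and HL WT (0.66 ± 0.11 and 0.61 ± 0.11), Smpd2 in FL WT (0.53 ± 0.11), and Cers2, the synthase of very long chain ceramides, fell in HL mutants (-0.60 ± 0.13, and -1.39 on the deposited scale). The 8 endothelial markers were all below 0 in these comparisons, with medians of -0.35, -0.61 and -0.70. Of them 3, 3 and 5 were called lower, beside 2039, 2224 and 2172 of 12399 over all genes. Erythroid medians were also below 0 (-0.08, -0.05 and -0.08). Those of myeloid markers (0.36, 0.42 and 0.39) and limb mesenchyme (0.12, 0.22 and 0.11) were above 0. Medians of the remaining marker lists differed in sign between the comparisons. The part of these cell types in the stage differences was not tested.

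Genes whose level followed that of Sptssa most closely were not those of its complex. Over 24 libraries and 5569 genes, the highest Pearson r of log2 levels with Sptssa were those of Uba3 (0.839), Hist1h1e (0.808), Mterf2 (0.794), D10Jhu81e (0.791) and Hist1h1b (0.774). Uba3 encodes the catalytic subunit of the NEDD8-activating enzyme, and the Hist1h1 genes encode linker histones. Over the 12 libraries of E11.5 they were those of Lage3 (0.953), Cryzl1 (0.953), Nedd1 (0.946), Kifap3 (0.944) and Uba3 (0.941). Among the members with a mean of at least 5 rescaled TPM, r over 24 libraries was 0.397 for Sptlc1, 0.320 for Sptlc2, -0.206 for Ormdl1 and 0.405 for Ormdl3, beside a median of 0.021 over 5937 genes, those of Gm and Rik type included, which the ranking leaves out. Over E11.5 r was 0.355, 0.153, 0.606 and -0.607. These r are descriptions: the points share libraries, stages and the E11.5 FL groups that chose Sptssa. In E11.5 FL Uba3 was 34.3 ± 2.57 rescaled TPM in WT and 21.4 ± 2.17 in mutants, and Kifap3, a kinesin-associated protein gene, 7.89 ± 0.190 and 3.97 ± 0.232.

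The neighbours of Sptssa on chromosome 12 did not share its E11.5 forelimb difference in size. Eapp, 13767 bases away, was 11.3 ± 0.549 rescaled TPM in WT and 9.93 ± 0.647 in mutants (-0.18, log2, mutant minus WT). Snx6 was -0.14 and Cfl2 -0.12. On the other side the nearest tested protein-coding genes lie 2073417 to 2638891 bases away: Arhgap5 was -0.51, Nubpl -0.15 and Dtd2 0.01. These values come from the comparison that chose Sptssa and are a description.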

How the data were processed

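Total RNA of 24 dissected limb bud libraries was sequenced by the authors, 1 library per sample. The deposited values are TPM (transcripts of each gene symbol, relative to all and per length), which the authors scaled to a total of 1000000 in each library. TPM keeps no read depth, so the depth behind each value is unknown and no counting error can be given. The submitters' processing notes name HISAT2 and mm10; which quantifier, gene models or strand setting was used is not given in the sources used here. Only reads of E10.5 had 3 nt trimmed, per the labels, so stage and trimming cannot be told apart.

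Each library was divided by a factor (0.664 to 1.86) that equalised the median log2 TPM over the 3518 genes with at least 5 TPM in all 24 libraries. Each fit took genes reaching 1 deposited TPM in 3 or more of its libraries, tested on log2(rescaled TPM + 1) with limma 3.58.1 (R 4.3.3, intensity trend, two-sided, Benjamini-Hochberg over all genes tested, threshold 0.05). Genotype and limb comparisons were fitted on the 12 libraries of their stage (8 degrees of freedom for the spread), and stage comparisons used all 24 (16). The fits were tested on simulated data, with known changes put into genes above 5 rescaled TPM. Of 2-fold changes, 78% were recovered in E10.5 FL mutant minus WT and 93% in E11.5 HL mutant minus WT. For HL WT E11.5 minus E10.5 it was 92%. The false calls were 9, 10 and 6, and changes under 2-fold were not simulated. Many genes were changed at once in each simulation, which eases the Benjamini-Hochberg threshold. In the data only 3 genes passed in E10.5 FL mutant minus WT and 2 in E11.5 HL mutant minus WT. The recovery of a lone changed gene in such a comparison was therefore not measured. Ratios of TPM within a library were compared by exact two-sided permutation within strata; the stage test of the ratios was added after their values were seen. Positions are from GENCODE M21 (GRCm38) and promoters from RefSeq (GRCm38.p6).

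The members, the pathway and marker lists and the tests were chosen with earlier results of these data known. Named genes are the 7 members, Sptlc3, up to 4 pathway genes of smallest adjusted p per comparison (the 2 of smallest unadjusted p where none passed), the 5 genes most like Sptssa, its 3 nearest tested protein-coding neighbours on each side, Rnu11, and Tbx5, Pitx1 and Tbx4. Libraries of equal replicate number met a residual correlation above 0.1 in 3 of 3 pairs only between FL and HL of E10.5 mutants (0.104 to 0.190). The Xist-positive mutant libraries also had the same replicate numbers in both limbs. If FL and HL libraries share embryos, the limb comparisons leave out a pairing, and the E10.5 strata of the permutation test are not independent. Alternatives were the deposited scale, other rescaling factors, a pseudocount of 0.1, no filter, other sets of libraries in the fit, a replicate block and left-out libraries. Minor-intron splice sites and protein sequences were not analysed here.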

Additional observations from a re-analysis of the deposited data

How the results depend on the processing

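The genotype and limb results kept 0 members past the limma threshold in all alternatives run. With the Xist-positive libraries left out, the Sptssa difference was -0.12 in E10.5 HL and -0.40 in E10.5 FL. That setting leaves a lone mutant library per limb at E10.5, assumed to vary like the other groups. In E11.5 FL the Sptssa difference was -0.49 on the deposited scale and -1.09 to -0.88 with 1 library left out. The number of members past the threshold between stages in FL WT, 4, was 1 on the deposited scale (Ormdl1, lower), 2 with no filter, 1 with only the groups compared in the fit, 1 without Xist-positive libraries, and 2 to 4 with 1 library left out (2 without E10.5 FL WT replicate 2 or any 1 of the E11.5 FL WT libraries). In HL mutants the number, 3, was 1 with no filter, 1 without Xist-positive libraries, and 0 to 2 with 1 library left out (0 without E10.5 HL mutant replicate 2). The deposited scale reversed 8 stage differences: Sptssa in HL WT (-0.065) and HL mutants (-0.482), Ormdl3 in HL WT (-0.091), FL WT (-0.029) and HL mutants (-0.25), Sptlc1 in FL WT (-0.15), and Sptlc2 in FL WT (-0.12) and HL mutants (-0.47). The Ormdl ratio to the core was 0.28 (exact permutation p = 0.145) with Ormdl3 alone in place of the sum, an alternative chosen after seeing the data, and -0.51 to -0.36 with 1 library left out (p from 0.005, the smallest these permutations can give, to 0.025). With a replicate block (replicate number as the pairing) the Sptssa ratio difference between genotypes was -0.04 (exact permutation p = 0.766), and the block changed no count of members called in any comparison. Depth is unknown, so nothing can be said of counting error in the low values of Sptssb and Sptlc3.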
